A study of Danio rerio with 2 samples.

Results

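Amino acid transporters of the solute carrier (SLC) families carry amino acids across the plasma membrane and the membranes of lysosomes. The genes described here are those whose names in the deposited feature list begin with slc3a, slc7a, slc38a or slc43a, in lower or upper case. The rule takes 36 genes of the 32057 features listed. 10 of the 36 stand in the list under the capitalised symbol of a mammalian counterpart and are printed here as listed. 35 of them code for members of transporter families, and slc7a6os, which is named for its place opposite another gene, is included by its name alone. They were chosen around slc7a2, whose transcripts were already known to be nearly absent from the library of knockout fish, and the question put to the data is whether its relatives stood higher there.

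The SLC7 family has branches that work in different ways. The cationic amino acid transporters (SLC7A1, SLC7A2 and SLC7A3 in mammals) carry arginine, lysine and ornithine on their own, while the light chains of the same family reach the membrane only when joined to a heavy chain of the SLC3 family. SLC38 transporters move neutral amino acids with sodium, and in the mammalian brain the system N members release glutamine from astrocytes and the system A members take it up. The SLC43 family holds carriers of large neutral amino acids and a carrier of nucleobases.

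Hypothalami were taken from 6-month-old male zebrafish of 2 groups: CCK1/2-KO fish, in which both cholecystokinin genes had been disrupted with CRISPR/Cas9, and wild-type (WT) fish. Tissue from 30 fish per group was pooled, dissociated with trypsin, EDTA and DNase II, and made into 1 droplet-based single-cell RNA-seq library per group. The groups therefore have no replicates, and genotype, pool of fish, dissociation and library cannot be told apart. No test was run and no p-value is given. Every comparison sets 1 library against 1 library, and all intervals cover counting error only.

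After filtering, the CCK1/2-KO library held 10393 cells with 52259018 unique molecular identifiers (UMIs, counts of single captured transcripts) and the WT library 8543 cells with 47558131 UMIs. The median cell had 2870 UMIs in CCK1/2-KO and 3077 in WT, and the libraries shared 52 barcodes, each taken as 2 cells. Of the edited genes, ccka had 8466 UMIs in the CCK1/2-KO library and 17878 in the WT library, a log2 ratio of −1.21 (−1.25 to −1.18), so the mutant library had less of it and transcripts remained in both. The other edited gene was not analysed here. The hypothalamic peptide gene pmchl was abundant in both libraries, with 81602 CCK1/2-KO and 135872 WT UMIs. 0 cells met the marker rule for pituitary endocrine cells, which asks for at least 3 markers with a UMI in the cell. These markers are hormone genes such as pomca, prl and gh1, and a pituitary cell with fewer of them would not be counted. The 0 therefore does not show that pituitary cells were absent.

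Each cell was placed in a class by its raw counts of marker genes, none of which is an amino acid transporter gene of this set. 11 classes with markers could be compared, from 4150 CCK1/2-KO and 3486 WT neuron-like cells to 34 CCK1/2-KO and 31 WT ciliated-like and 43 CCK1/2-KO and 26 WT lymphatic endothelium-like cells. In the small classes many cells also met the rule of another class, as did 35.4% of CCK1/2-KO and 44.6% of WT oligodendrocyte precursor-like cells and 64.7% of CCK1/2-KO and 58.1% of WT ciliated-like cells. Cells with very high counts of epd (ependymin), 79 in CCK1/2-KO and 38 in WT, were kept apart as epd-rich cells, and 19.0% of CCK1/2-KO and 16.9% of WT cells stayed unassigned. The level of a gene is its UMI count scaled to 1e+06 UMIs summed over those cells (CPM), and its difference is the log2 ratio of the CCK1/2-KO level over the WT level, with its exact 95% interval in brackets. A gene is called higher or lower in CCK1/2-KO when the levels differ by at least 1.5-fold and the 2 libraries together hold at least 100 UMIs of it. 34 of the 36 genes reached that number. The others were slc43a3a, with 51 CCK1/2-KO and 45 WT UMIs, and slc38a8a, with 19 CCK1/2-KO and 8 WT UMIs.

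The cationic transporter gene slc7a2 (ENSDARG00000037097) was nearly absent from CCK1/2-KO cells and spread over most cell classes in WT. It had 7 UMIs in the CCK1/2-KO library and 760 in the WT library, which is 0.13 CPM (0.054 to 0.28) against 16.0 CPM (14.9 to 17.2). The log2 ratio was −6.90 (−8.22 to −5.85), or a 119-fold lower level in CCK1/2-KO. Its mammalian counterpart supplies arginine to nitric oxide synthases and arginases, for example in activated macrophages.

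The 7 UMIs of the CCK1/2-KO library lay in 7 different cells, 4 of them neuron-like and 3 epd-rich. The 760 UMIs of the WT library lay in 419 cells, of which 257 had 1 UMI and 23 had 5 or more, up to 12 in a cell. No small set of WT cells made the level, since the 3 cells with the most slc7a2 held 4.21% of its UMIs. After each cell was thinned to 1000 UMIs, 0.013% of CCK1/2-KO cells and 1.15% of WT cells kept a slc7a2 UMI, against 0.067% and 4.90% of the full cells. In erythrocyte-like cells, in which a UMI is taken as background from free RNA, the counts gave thinned shares of 0 of 652 CCK1/2-KO cells and 1 of 542 WT cells, and unthinned shares of 0 of 1355 and 8 of 994 (0.805%). Their median depth was 980 CCK1/2-KO and 1038 WT UMIs. Taken as 3 counts of the total, the 0 of 652 allows a share of up to 0.460%. The interval of the thinned WT background (0.0047% to 1.02%) overlapped that of all thinned WT cells (0.903% to 1.45%), so these shares alone do not set WT expression apart from background at this depth.

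In WT the level of slc7a2 lay at 15.1 CPM in neuron-like cells, 16.3 in astroglia-like cells and 18.0 in oligodendrocyte-like cells, and the intervals of these 3 classes overlapped. Somewhat higher WT levels were found in oligodendrocyte precursor-like cells (27.3 CPM from 46 UMIs), vascular endothelium-like cells (28.0 CPM, 21.7 to 35.6) and macrophage-like cells (30.9 CPM, 23.4 to 40.2), and these 3 did not differ beyond counting error. The highest WT level, 88.7 CPM (48.5 to 149), belonged to epd-rich cells but came from 14 UMIs in 4 cells. Mural cell-like, T or NK cell-like and lymphatic endothelium-like WT cells held 7, 4 and 2 UMIs, and ciliated-like cells had 0 in either library. The WT level in erythrocyte-like cells was 3.64 CPM (1.57 to 7.17), below the intervals of the neural, macrophage-like and vascular classes. No single class held the gene in WT, and neuron-like cells, the largest class, carried 362 of the 760 UMIs.

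Within classes the CCK1/2-KO level was 0 nearly throughout. No slc7a2 UMI was found in CCK1/2-KO cells of the astroglia-like, macrophage-like, vascular endothelium-like, oligodendrocyte precursor-like, oligodendrocyte-like and unassigned classes, where WT had 118, 56, 67, 46, 34 and 42 UMIs. Taking 3 UMIs per class and library for a count of 0, the level was at least 48.7-fold lower in CCK1/2-KO astroglia-like cells and at least 24.3-fold lower in macrophage-like cells. The corresponding bounds were 23.3-fold in vascular endothelium-like, 12.2-fold in oligodendrocyte precursor-like, 8.11-fold in oligodendrocyte-like and 17.2-fold in unassigned cells. These bounds rest on that floor, and the exact 95% intervals of the same log2 ratios reach higher, up to −5.29 in astroglia-like, −4.26 in macrophage-like, −4.21 in vascular endothelium-like, −3.25 in oligodendrocyte precursor-like, −2.64 in oligodendrocyte-like and −3.74 in unassigned cells. Neuron-like cells had 4 CCK1/2-KO UMIs and 362 WT UMIs, a log2 ratio of −6.61 (−8.50 to −5.24). In epd-rich cells the difference was smaller and less precise, with 3 CCK1/2-KO and 14 WT UMIs and a log2 ratio of −2.55 (−4.99 to −0.70).

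**Figure D1:**
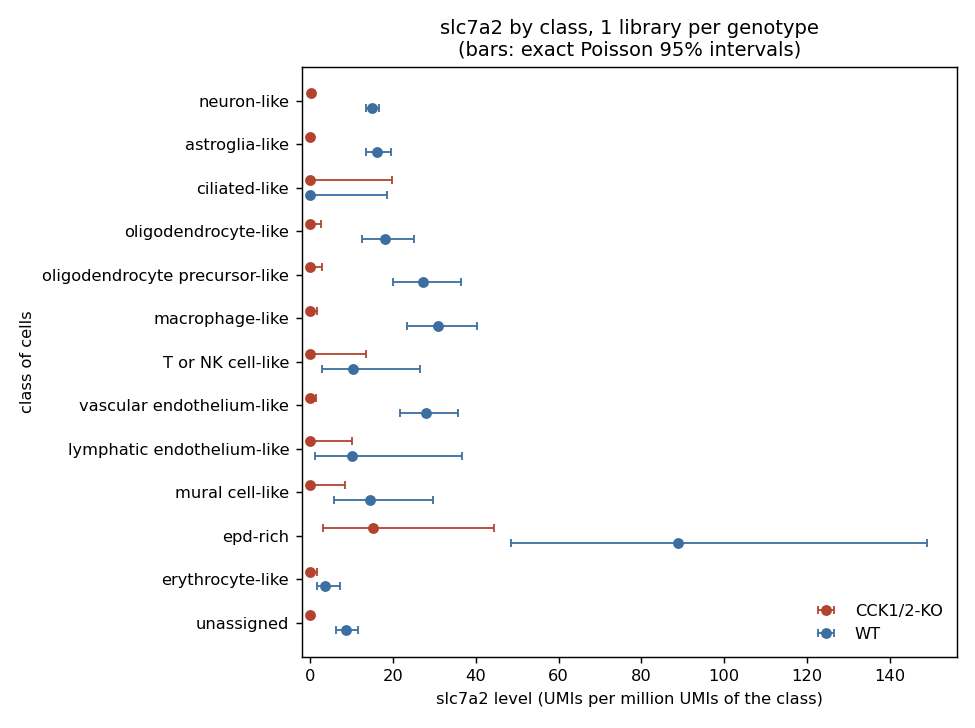
Level of slc7a2 in CPM (x axis) in each class of cells (y axis), CCK1/2-KO in red above WT in blue, with exact Poisson 95% intervals. The WT points sit between 3.64 and 88.7 CPM in every class but the ciliated-like one, and the CCK1/2-KO points sit at 0 except for 0.15 CPM in neuron-like and 15.2 CPM in epd-rich cells.

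The closest relatives of slc7a2, the other cationic amino acid transporter genes, stood at nearly the same level in both libraries. slc7a3a had 15226 CCK1/2-KO and 12618 WT UMIs, a log2 ratio of 0.14 (0.10 to 0.17). SLC7A3 had 2483 CCK1/2-KO and 2081 WT UMIs, a log2 ratio of 0.12 (0.03 to 0.20). SLC7A1 had 373 CCK1/2-KO and 347 WT UMIs, a log2 ratio of −0.03 (−0.25 to 0.18). None of the 3 reached 1.5-fold, and the upper ends of their intervals lay at or below 0.20. A further gene of this branch, slc7a1a, is listed by its identifier only and so falls outside the naming rule. It had 479 CCK1/2-KO and 418 WT UMIs, a log2 ratio of 0.06 (−0.13 to 0.25).

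These relatives have cell distributions of their own. slc7a3a was highest in vascular endothelium-like cells, at 1304 CPM in CCK1/2-KO and 1556 in WT, followed by mural cell-like cells at 561 and 620 CPM. SLC7A3 was highest in T or NK cell-like cells, at 232 CPM in CCK1/2-KO and 247 in WT, and SLC7A1 in oligodendrocyte-like cells, at 32.6 and 32.9 CPM. Each of the 3 had the same leading class in both libraries.

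Within the classes that lost most slc7a2, slc7a3a differed little in most and more in macrophage-like cells. Its log2 ratio was 0.29 (0.23 to 0.35) in neuron-like cells, 0.33 (0.25 to 0.40) in astroglia-like cells and −0.25 (−0.32 to −0.19) in vascular endothelium-like cells. In macrophage-like cells it had 110 CCK1/2-KO and 49 WT UMIs, or 46.7 against 27.1 CPM, and the log2 ratio of 0.79 (0.29 to 1.30) was past 1.5-fold. With doublets kept that ratio was 0.51, short of 1.5-fold. The summed level of 15 vascular endothelium markers within macrophage-like cells was 36.9 CPM in CCK1/2-KO and 23.2 in WT, with 8 of the 15 higher in CCK1/2-KO. cldn5b, plvapb and sox18 were at 0 in both libraries, and egfl7 and she were also at 0 in WT. Its part in the slc7a3a difference was not tested. SLC7A3 in macrophage-like cells had a log2 ratio of 0.29 (−0.01 to 0.60), and SLC7A1 was too sparse there to compare.

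The remaining members of the cationic branch, slc7a4 and slc7a14a, resemble these carriers in sequence. In mammals SLC7A14 lies in lysosomal membranes, and SLC7A4 has not been shown to carry amino acids by itself. Both were highest in neuron-like cells, where slc7a4 was past 1.5-fold lower in CCK1/2-KO and slc7a14a was not. slc7a14a had 4258 CCK1/2-KO and 3760 WT UMIs, a log2 ratio of 0.04 (−0.02 to 0.11), and 0.02 (−0.04 to 0.09) within neuron-like cells. Its identifier-only copy slc7a14b had 121 CCK1/2-KO and 118 WT UMIs.

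slc7a4 was the neuronal transporter gene with the lowest ratio apart from slc7a2. It had 592 CCK1/2-KO and 976 WT UMIs, or 11.3 against 20.5 CPM, a log2 ratio of −0.86 (−1.01 to −0.71). Within neuron-like cells it had 439 CCK1/2-KO and 841 WT UMIs, or 16.9 against 35.0 CPM, a log2 ratio of −1.05 (−1.22 to −0.88). Among unassigned cells the counts were 82 and 63 UMIs with a ratio of 0.08 (−0.41 to 0.58). The difference was therefore found in neuron-like cells, and whether the 2 classes differ was not tested.

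Splitting neuron-like cells by transmitter genes gave the same direction for slc7a4 in each part. Cells with a UMI of slc17a6a or slc17a6b (vesicular glutamate transporters) and none of gad1b, gad2 or slc32a1 (GABA synthesis and packing) numbered 850 in CCK1/2-KO and 615 in WT, and slc7a4 had 16.4 against 30.2 CPM, a log2 ratio of −0.88 (−1.25 to −0.52). Cells with only the GABA genes numbered 1940 and 1652, and slc7a4 had 15.4 CPM in CCK1/2-KO against 35.2 CPM in WT, a log2 ratio of −1.19 (−1.46 to −0.93). In cells with both kinds the ratio was −1.05 (−1.37 to −0.74), and in cells with neither, which are shallower, −0.68 (−1.38 to 0.02). The 3 cells with the most slc7a4 held 2.36% of its CCK1/2-KO and 1.84% of its WT UMIs. The neuron-like ratio moved to −0.58 when each cell was thinned to 1000 UMIs, just under 1.5-fold, and stayed between −1.07 and −1.04 under the other alternatives. Over the same cells the summed level of 15 neuron markers was 12182 CPM in CCK1/2-KO and 13053 in WT, and 2 of the 15 were higher in CCK1/2-KO.

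**Figure D2:**
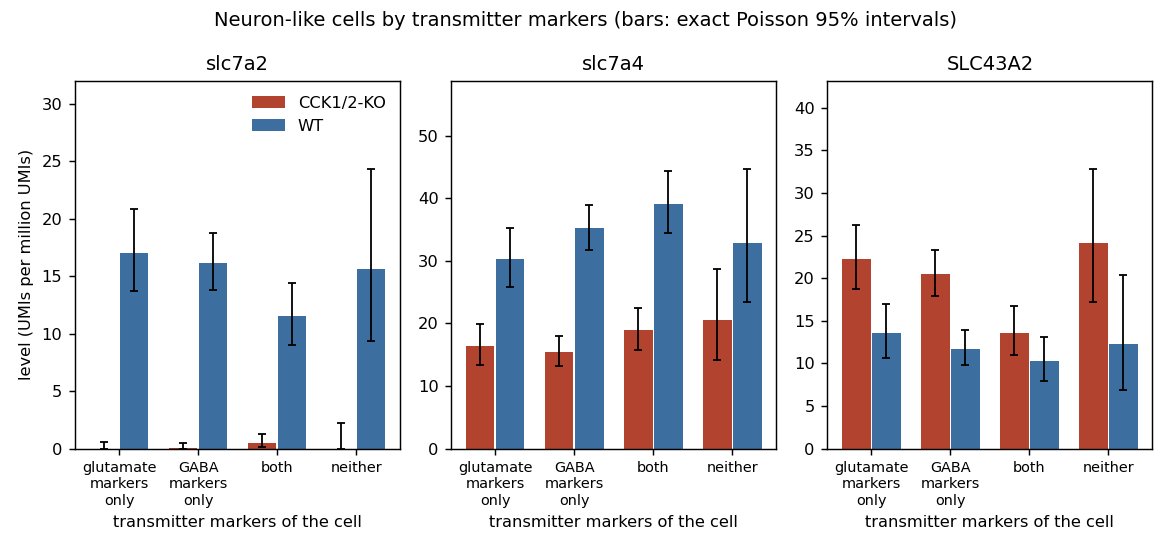
Levels in CPM (y axis) of slc7a2, slc7a4 and SLC43A2 in neuron-like cells grouped by their transmitter genes (x axis), CCK1/2-KO in red left of WT in blue, with exact Poisson 95% intervals. slc7a2 is at most 0.44 CPM in CCK1/2-KO, slc7a4 is lower in CCK1/2-KO in all 4 parts, and SLC43A2 is higher in all 4. The intervals of the 2 libraries overlap for slc7a4 in cells with neither kind of marker and for SLC43A2 in cells with both or neither.

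The heavy chains carry the SLC7 light chains to the membrane. slc3a2a and slc3a2b, the copies of the CD98 heavy chain gene, both had ratios above 0. slc3a2a had 3974 CCK1/2-KO and 2708 WT UMIs, a log2 ratio of 0.42 (0.35 to 0.49), and slc3a2b had 2461 and 1713 UMIs, a ratio of 0.39 (0.30 to 0.48). Neither reached 1.5-fold over all cells. Under the alternatives the ratio over all cells ran from 0.26 to 0.44 for slc3a2a and from 0.38 to 0.41 for slc3a2b. SLC3A1, the partner of SLC7A9 in mammals, had only 72 CCK1/2-KO and 74 WT UMIs, a ratio of −0.18 (−0.66 to 0.31).

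The 2 copies of the CD98 gene lay in different cells. slc3a2a was concentrated in astroglia-like cells, at 312 CPM in CCK1/2-KO and 263 in WT, and in macrophage-like cells, at 295 and 217 CPM. slc3a2b was more even, and its level was 54.7 CPM in CCK1/2-KO and 34.5 in WT astroglia-like cells, a log2 ratio of 0.67 (0.44 to 0.89) that is past 1.5-fold. In neuron-like cells slc3a2b was at 54.1 CPM in CCK1/2-KO and 44.2 in WT, a ratio of 0.29 (0.18 to 0.41). In oligodendrocyte-like cells slc3a2a went the other way, with 43 CCK1/2-KO and 109 WT UMIs and a log2 ratio of −0.86 (−1.40 to −0.34). That ratio was −0.54 with thinned cells, short of 1.5-fold.

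Among the light chains, slc7a10a and SLC7A9 were lower in CCK1/2-KO over all cells and none was past 1.5-fold higher. slc7a10a, a copy of the gene for the small neutral amino acid carrier Asc-1, had 796 CCK1/2-KO and 1210 WT UMIs, a log2 ratio of −0.74 (−0.87 to −0.61). It was concentrated in oligodendrocyte-like cells, at 375 CPM in CCK1/2-KO and 445 in WT, 66.1-fold and 54.8-fold over the rest of the cells. Within these cells the ratio was only −0.24 (−0.41 to −0.08). Oligodendrocyte-like cells made up 2.66% of CCK1/2-KO and 3.87% of WT cells, and when the WT class composition was given to both libraries the ratio of slc7a10a over all cells was −0.30, short of 1.5-fold. Its low level within astroglia-like cells, 52 CCK1/2-KO and 121 WT UMIs with a ratio of −1.53 (−2.03 to −1.05), was −0.45 when the 3 highest cells per library were left out. The 9 oligodendrocyte markers summed to 263 CPM in CCK1/2-KO and 365 in WT within astroglia-like cells, with 4 of 9 higher in CCK1/2-KO and none at 0, and their part in this difference was not tested. Its other copy, SLC7A10, was found in astroglia-like cells, at 66.2 CPM in CCK1/2-KO and 71.3 in WT, and did not differ beyond counting error there, with a ratio of −0.11 (−0.28 to 0.07).

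SLC7A9, whose mammalian counterpart takes up cystine and cationic amino acids, was sparse, with 41 CCK1/2-KO and 71 WT UMIs and a log2 ratio of −0.93 (−1.52 to −0.35). The 3 highest WT cells held 18.3% of its WT UMIs, and without the 3 highest cells it no longer reached 100 UMIs. The other light chains with more UMIs stayed within 1.5-fold. slc7a7, which exchanges cationic for neutral amino acids in mammals, was 83.6-fold higher in CCK1/2-KO macrophage-like cells than in the rest of that library and 76.0-fold higher in WT, at 1198 and 992 CPM. Over all cells slc7a7 had a log2 ratio of 0.43 (0.35 to 0.50), which was 0.22 with the WT class composition, and 0.27 (0.19 to 0.36) within macrophage-like cells. slc7a5 and slc7a8a, genes of large neutral amino acid carriers, had ratios of −0.09 (−0.20 to 0.03) and 0.13 (0.06 to 0.21), and slc7a6 had 0.12 (−0.05 to 0.29).

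Differences of these light chains inside classes were less steady. slc7a5 had 117 CCK1/2-KO and 71 WT UMIs in vascular endothelium-like cells, a log2 ratio of 0.66, which was 0.50 under the stricter class rule and 0.03 with thinned cells. In oligodendrocyte precursor-like cells slc7a6 had 63 CCK1/2-KO and 43 WT UMIs, a ratio of 0.89 (0.30 to 1.48), and slc7a5 56 and 46 UMIs, a ratio of 0.62 (0.03 to 1.21). With thinned cells the first of these was −0.43 and the other 0.16. slc7a8a among unassigned cells had 593 CCK1/2-KO and 210 WT UMIs, a ratio of 1.20 (0.97 to 1.43), but 3 cells decided much of it, and without the 3 highest cells it was 0.38.

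The SLC38 genes with at least 100 UMIs stayed within 1.5-fold over all cells but for slc38a11, which is lowly detected and had 83 CCK1/2-KO and 128 WT UMIs, a log2 ratio of −0.76 (−1.18 to −0.35). slc38a2, a system A gene whose mammalian counterpart is induced when amino acids are short, had 7523 CCK1/2-KO and 8416 WT UMIs, a ratio of −0.30 (−0.34 to −0.25). It was lower in neuron-like cells, at −0.37 (−0.43 to −0.31), and higher in oligodendrocyte-like cells, where its level was 937 CPM in CCK1/2-KO and 749 in WT and its ratio 0.32 (0.21 to 0.43). slc38a4, the other system A gene, was concentrated in epd-rich cells, at 319 CPM in CCK1/2-KO and 292 in WT, and in mural cell-like cells, at 112 and 63.8 CPM. Its ratio over all cells was 0.04 (−0.13 to 0.21).

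The system N genes, which move glutamine in and out of cells, were highest in glia, vessels and lymphocytes. slc38a3a stood at 1162 CPM in CCK1/2-KO and 1102 in WT astroglia-like cells and at 1795 and 1813 CPM in vascular endothelium-like cells. SLC38A3 was found mainly in astroglia-like cells, at 126 CPM in CCK1/2-KO and 129 in WT, and SLC38A5 in T or NK cell-like cells, at 295 and 306 CPM. slc38a5b was highest in vascular endothelium-like cells, at 63.3 CPM in CCK1/2-KO and 80.7 in WT. Over all cells the ratios of these 4 genes ran between −0.19 for SLC38A5 and 0.19 for slc38a5b.

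Differences past 1.5-fold in system N genes appeared inside glial classes. In astroglia-like cells slc38a5b had 160 CCK1/2-KO and 55 WT UMIs, or 17.8 against 7.58 CPM, a log2 ratio of 1.23 (0.78 to 1.70), and 0.56 with thinned cells. The vascular endothelium markers, in whose class slc38a5b is highest, summed to 81.4 CPM in CCK1/2-KO and 81.2 in WT within astroglia-like cells. Of these markers 7 of 15 were higher in CCK1/2-KO and cldn5b was at 0 in both libraries. Their part in the slc38a5b difference was not tested. In oligodendrocyte-like cells slc38a3a had 366 CCK1/2-KO and 945 WT UMIs, or 271 against 501 CPM, a ratio of −0.89 (−1.06 to −0.71). It lay between −1.16 and −0.77 under all alternatives run. The summed level of 13 astroglia markers in those cells was 2995 CPM in CCK1/2-KO and 3451 in WT, with 6 of 13 higher in CCK1/2-KO and fabp7b and sox2 at 0 in both libraries. Its part was not tested. In macrophage-like cells slc38a3a had 68 CCK1/2-KO and 105 WT UMIs and a ratio of −1.01, but this turned to 0.30 without the 3 highest cells and to 0.35 under the stricter class rule, so no direction is given for it.

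The other SLC38 genes with enough UMIs were SLC38A10, slc38a6, slc38a7, SLC38A8 and slc38a9, the last known in mammals as a lysosomal arginine sensor. Their ratios over all cells lay between 0.00 for slc38a7 and 0.18 for slc38a6. slc38a7, whose mammalian product exports glutamine from lysosomes, was highest in macrophage-like cells, at 36.1 CPM in CCK1/2-KO and 37.6 in WT.

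SLC43A2 was the one gene with at least 100 UMIs that was past 1.5-fold higher in CCK1/2-KO over all cells. Its mammalian counterpart lets large neutral amino acids such as leucine pass without ion coupling. It had 897 CCK1/2-KO and 507 WT UMIs, or 17.2 against 10.7 CPM, in 552 CCK1/2-KO and 326 WT cells, a log2 ratio of 0.69 (0.53 to 0.85). Its ratio was 0.72 (0.50 to 0.93) in neuron-like cells and 1.08 (0.58 to 1.60) in astroglia-like cells, where it had 123 CCK1/2-KO and 47 WT UMIs. In macrophage-like cells the ratio was −0.15 (−0.71 to 0.41). With thinned cells the neuron-like value was 0.36, short of 1.5-fold, and the astroglia-like value 0.91.

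The named copy slc43a2b had a different distribution, with 243 CPM in CCK1/2-KO and 112 in WT macrophage-like cells and 95.6 and 73.7 CPM in astroglia-like cells. In macrophage-like cells this was 572 CCK1/2-KO against 203 WT UMIs, a log2 ratio of 1.11 (0.88 to 1.35) that lay between 0.94 and 1.23 under all alternatives run. Among unassigned cells it had 287 CCK1/2-KO and 407 WT UMIs, a ratio of −0.80 (−1.03 to −0.58), which was −0.42 under the stricter class rule and −0.30 with thinned cells. Macrophage markers summed to 205 CPM in CCK1/2-KO and 330 in WT unassigned cells, with 5 of 12 higher in CCK1/2-KO, and their part was not tested. In macrophage-like cells slc43a3b, whose mammalian counterpart carries purine nucleobases, went the other way from slc43a2b. These cells held 1831 of the 2609 CCK1/2-KO UMIs and 2496 of the 3208 WT UMIs of slc43a3b. Its level there was 777 CPM in CCK1/2-KO against 1379 CPM in WT, a ratio of −0.83 (−0.92 to −0.74), between −0.85 and −0.69 under the alternatives. Over all cells slc43a3b had a ratio of −0.43 (−0.51 to −0.36), and −0.64 with the WT class composition. Of the sparse members, slc43a1a had 72 CCK1/2-KO and 105 WT UMIs, a ratio of −0.68 (−1.13 to −0.23), and slc43a1b 136 and 131 UMIs, a ratio of −0.08 (−0.44 to 0.28).

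**Figure D3:**
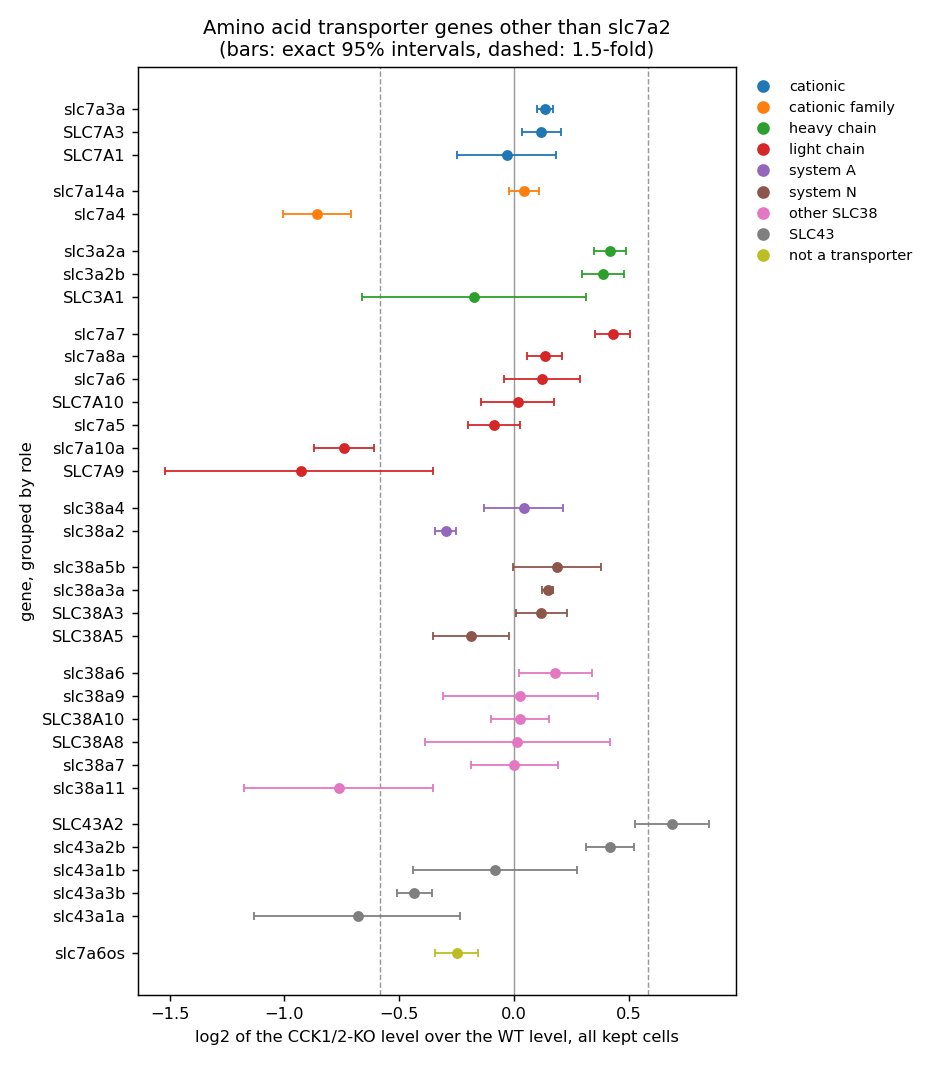
Log2 ratio of the CCK1/2-KO level over the WT level (x axis) for 33 genes with at least 100 UMIs over both libraries, grouped by role (y axis), with exact 95% intervals and dashed lines at 1.5-fold; slc7a2 at −6.90 is left out. SLC43A2 lies past the upper line and slc7a4, slc7a10a, SLC7A9, slc38a11 and slc43a1a past the lower one.

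Counted over all cells, 1 of the 33 other genes of the set with enough UMIs was past 1.5-fold higher in CCK1/2-KO. The share over the 18058 features with as many UMIs was 4.72%. slc7a6os, which is no transporter gene, is among the 33 and was past 1.5-fold in neither direction. 5 of the 33 were past 1.5-fold lower, which is 15.2%, against 5.02% of all features. Of these 5, slc7a4 and slc7a10a had 300 UMIs or more, and the other 3 had between 112 and 211. The median ratio of the 33 was 0.026 and that of all features −0.0037, and 20 of the 33 lay above 0. Over all cells, calls of a higher level among these genes were thus not above the background share in the library where slc7a2 was nearly absent. Within classes, described below, 12.9% of the combinations of a gene and a class were higher, against 6.71% over all features. Of the higher calls followed under the alternatives, only SLC43A2 and slc3a2b in astroglia-like and slc43a2b in macrophage-like cells held in all. How often calls over all features hold under them is not given here.

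**Figure D4:**
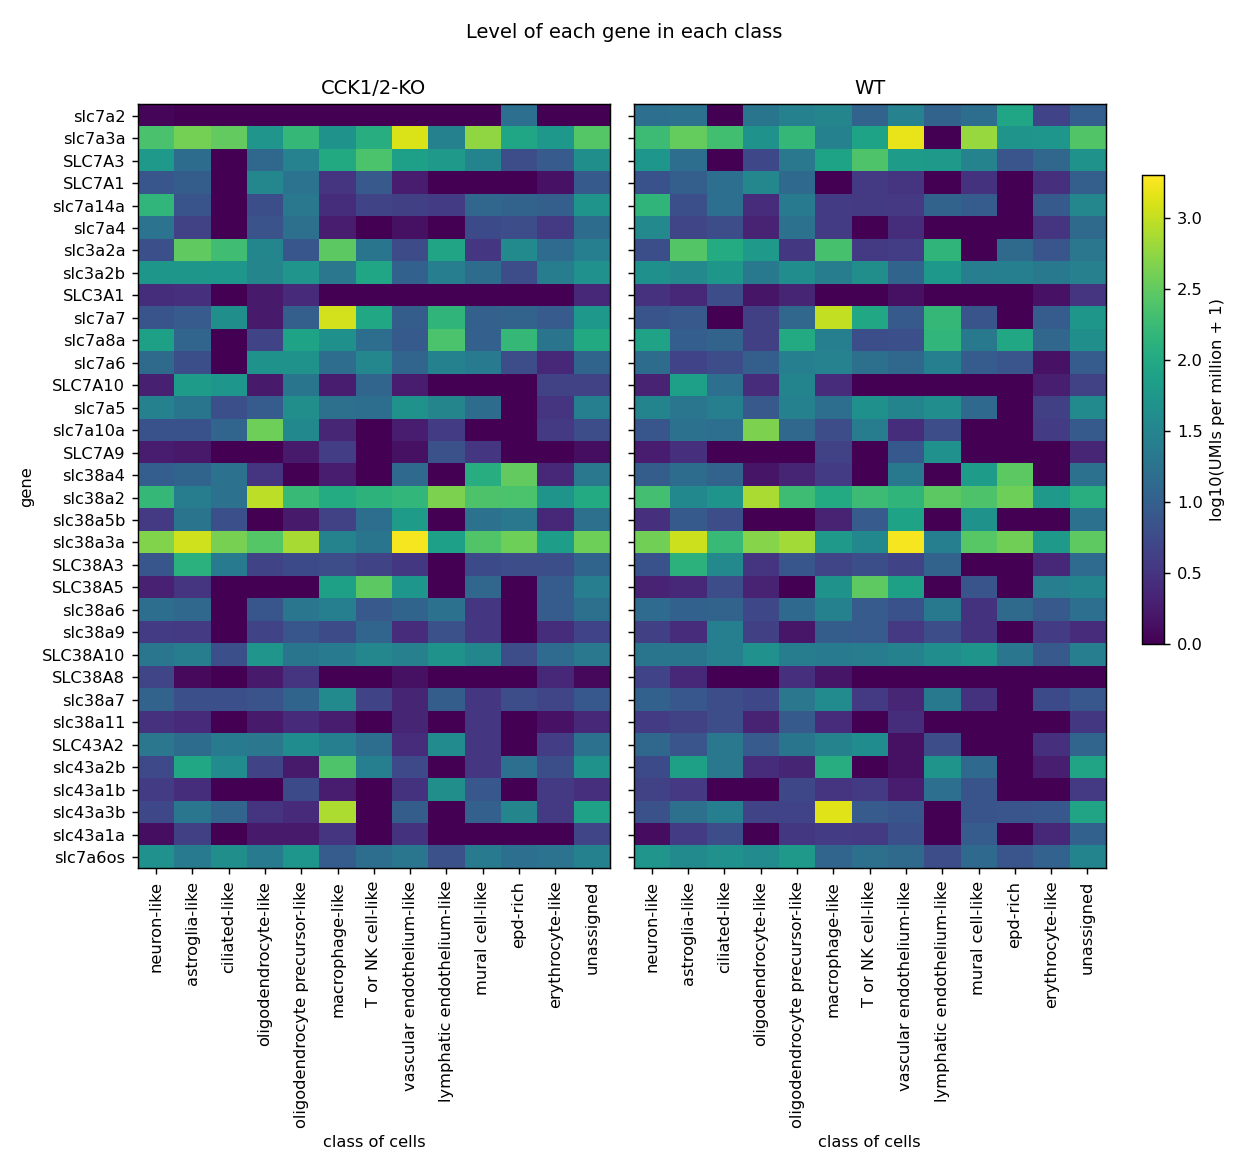
Level of each gene with at least 100 UMIs (rows) in each class of cells (columns), CCK1/2-KO on the left and WT on the right, as log10 of CPM plus 1. Read along a row, the leading classes are much alike in both panels, while the slc7a2 row at the top is dark in CCK1/2-KO except in epd-rich cells (15.2 CPM).

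The class with the highest level of each gene was compared between the libraries. It was the same in both for 25 of the 34 genes, and no share over all features stands beside that count. 5 of these were highest in macrophage-like cells (slc7a7, slc38a6, slc38a7, slc43a2b and slc43a3b), 3 in neuron-like cells (slc7a4, slc7a14a and SLC38A8), and 3 in vascular endothelium-like cells (slc7a3a, slc38a3a and slc38a5b). Astroglia-like cells led for slc3a2a, SLC7A10 and SLC38A3, and oligodendrocyte-like cells for SLC7A1, slc7a10a and slc38a2. The other 8 were highest in T or NK cell-like (SLC7A3 and SLC38A5), epd-rich (slc7a2 and slc38a4), lymphatic endothelium-like (slc7a8a, SLC7A9 and slc43a1b) or oligodendrocyte precursor-like cells (slc7a6os). Some of these matches rest on few UMIs. The epd-rich lead of slc7a2 came from 3 CCK1/2-KO and 4 WT cells with a UMI. In lymphatic endothelium-like cells SLC7A9 stood at 5.52 CPM in CCK1/2-KO and 45.6 in WT, and slc43a1b at 41.4 and 15.2. That class held 43 CCK1/2-KO and 26 WT cells. Among the 9 genes whose leading class differed were slc3a2b, slc7a5, slc7a6, SLC38A10 and SLC43A2. For several of the 9 the leading class was a small one, such as T or NK cell-like cells (73 in CCK1/2-KO and 104 in WT) or ciliated-like cells (34 and 31). slc7a6 was neither sparse nor even, with 46.7 CPM in CCK1/2-KO and 9.01 in WT oligodendrocyte-like cells.

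Within classes, 124 combinations of a gene and a class had at least 100 UMIs. The ratio was past 1.5-fold higher in CCK1/2-KO in 16 of them, past 1.5-fold lower in 10, and neither in 98. These are 12.9% and 8.06% of the combinations, against 6.71% higher and 6.73% lower over the 61115 combinations of any feature and class, and 22 of the 26 calls lay in 7 classes. Those 7 classes, which had at least 20 slc7a2 UMIs each in WT, were set against all features of the same class.

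In neuron-like cells 1 of 28 genes was higher (SLC43A2) against 4.87% of all features, and 1 was lower (slc7a4) against 3.62%. In astroglia-like cells 3 of 21 were higher (slc38a5b, SLC43A2 and slc3a2b) against 5.57%, and 2 were lower (slc7a10a and slc7a6os) against 5.7%. In both classes the counts are small and rest on few genes. slc7a6os, which is no transporter gene, had 196 CCK1/2-KO and 262 WT UMIs in astroglia-like cells, a log2 ratio of −0.73.

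Oligodendrocyte-like cells had 0 of 8 genes higher, against 9.03%, and 3 lower (slc38a3a, slc3a2a and slc7a6os, the last no transporter gene), against 8.1%. Not counted there, being under the minimum of 100 UMIs, was slc7a6. It had 63 CCK1/2-KO and 17 WT UMIs, a log2 ratio of 2.37 (1.58 to 3.24). Oligodendrocyte precursor-like cells had 2 of 8 higher (slc7a6 and slc7a5), against 6.12%, and 0 lower, against 5.45%. Vascular endothelium-like cells had 1 of 8 higher (slc7a5), against 6.65%, and 0 lower, against 9.82%. Unassigned cells had 2 of 22 higher (slc7a8a and slc3a2b), against 5.75%, and 1 lower (slc43a2b), against 6.22%. The log2 ratio of slc3a2b there was 0.82. With thinned cells it was 0.42, that of slc7a8a 0.04 and that of slc43a2b −0.30, all short of 1.5-fold. With 8 to 22 genes per class, each of the shares given for these classes turns on 1 to 3 genes.

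Macrophage-like cells had the most calls for their number of genes, with 4 of 13 higher (slc43a2b, slc7a8a, slc7a3a and SLC38A5) against 10.9% of all features, and 2 lower (slc43a3b and slc38a3a) against 13.4%. The median ratio of the 13 genes was 0.27, against −0.024 over all features of the class. SLC38A5 there had 173 CCK1/2-KO and 85 WT UMIs, a ratio of 0.64 (0.26 to 1.04), and slc7a8a had 104 and 46 UMIs, a ratio of 0.80 (0.28 to 1.33). Neither reached 1.5-fold under the stricter class rule, at 0.40 and 0.44, SLC38A5 also with thinned cells, at 0.06, and slc7a8a also with doublets kept, at 0.45. slc43a2b and slc43a3b kept their call under every alternative run. The class held 336 CCK1/2-KO and 266 WT cells, its 12 markers summed to 4448 CPM in CCK1/2-KO and 5210.3 in WT, with 6 of the 12 higher in CCK1/2-KO and apoeb at 0 in both libraries.

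**Figure D5:**
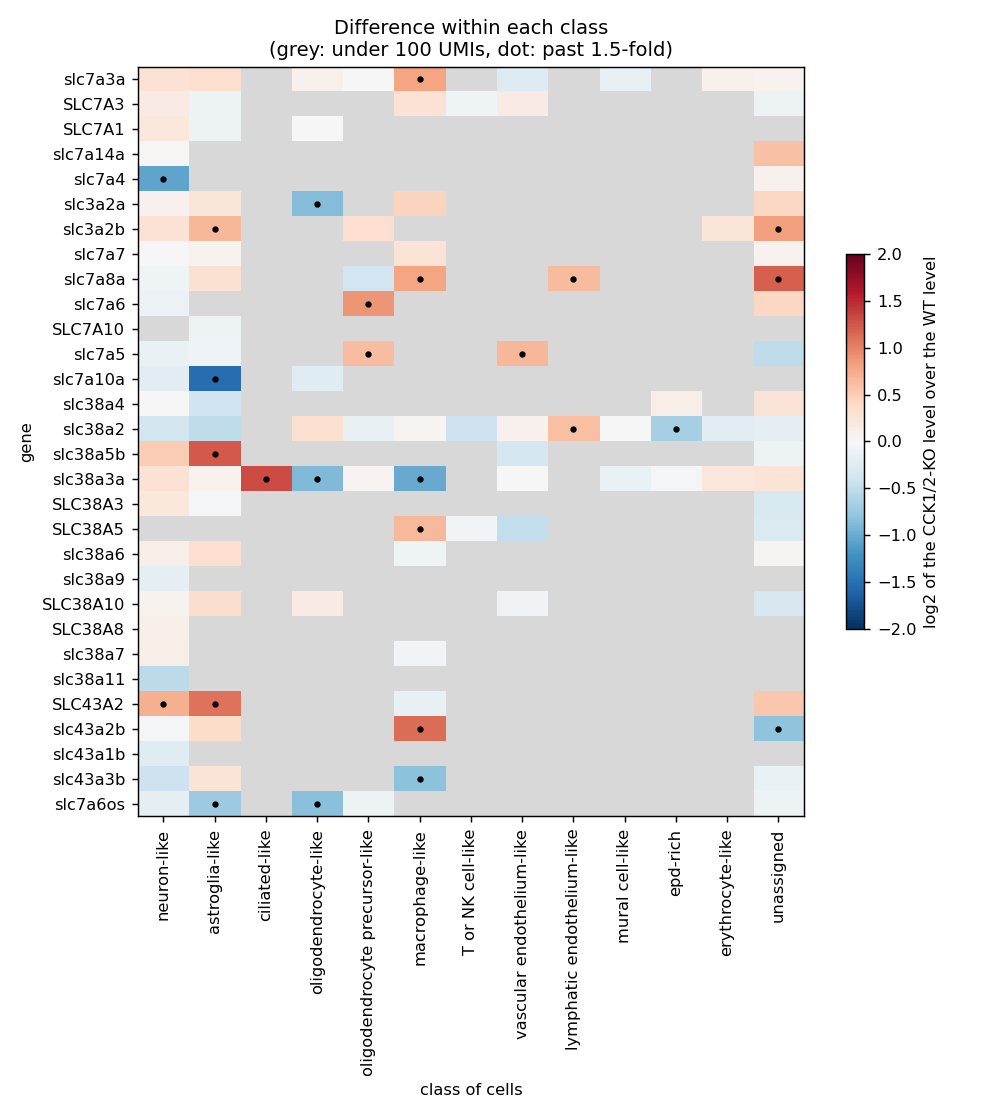
Log2 ratio of the CCK1/2-KO level over the WT level for each gene (rows) within each class of cells (columns), where the pair had at least 100 UMIs; grey marks pairs with fewer and dots pairs past 1.5-fold. Reds and blues mix in every well-filled column, with slc7a4 at −1.05 in neuron-like cells and slc43a2b at 1.11 and slc43a3b at −0.83 in macrophage-like cells.

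The cystine and glutamate exchanger gene slc7a11, which supplies cysteine for glutathione and also pairs with the CD98 heavy chain, is listed by its identifier only and falls outside the rule. It was looked at as 1 of 4 such family genes found through a table of gene identifiers. It had 9340 CCK1/2-KO and 6210 WT UMIs, a log2 ratio of 0.45 (0.41 to 0.50), and most lay in astroglia-like cells, at 900.5 CPM in CCK1/2-KO and 738 in WT. In macrophage-like cells it had 304 CCK1/2-KO and 79 WT UMIs, or 129 against 43.7 CPM, a ratio of 1.56 (1.20 to 1.94). No value under the alternatives is given for this ratio. Within macrophage-like cells 13 astroglia markers summed to 776 CPM in CCK1/2-KO and 723 in WT. Of these, 6 of 13 were higher in CCK1/2-KO, and fabp7b and sox2 were at 0 in both libraries. Their part in the slc7a11 difference was not tested. The last of the 4 family genes, slc7a8b, had 23 CCK1/2-KO and 13 WT UMIs.

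Genes that act beside these transporters were followed in 4 lists. Of 23 genes of the amino acid response, the program that cells switch on when amino acids are short, 2 were past 1.5-fold higher and 0 lower. These were phgdh, the first enzyme of serine synthesis, with 4714 CCK1/2-KO and 2737 WT UMIs and a log2 ratio of 0.65 (0.58 to 0.72), and ddit4, an inhibitor of TORC1, with 173 and 102 UMIs and 0.63 (0.26 to 0.99). The median of the list was 0.044. Of 21 genes of arginine, ornithine and polyamine metabolism with enough UMIs, 0 were higher and 1 was lower. This was oat, which converts ornithine, with 1907 CCK1/2-KO and 3150 WT UMIs and a ratio of −0.86 (−0.94 to −0.78), and the median was −0.038.

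The TORC1 list, on the sensing of amino acids at the lysosome, had 0 of 18 higher and 1 lower, rragd, with 44 CCK1/2-KO and 67 WT UMIs and a ratio of −0.74 (−1.33 to −0.17). Among 25 other amino acid transporter genes, 0 were higher and 1 was lower, the proline transporter gene slc6a7, with 91 CCK1/2-KO and 130 WT UMIs and a ratio of −0.65 (−1.05 to −0.25). The medians of these lists were 0.054 and −0.11. In all 4 lists the counts lay near or under the background of 4.72% higher and 5.02% lower, apart from the 2 of 23 in the amino acid response, which is too few to read.

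Genes that lie next to slc7a2 were examined because reads of overlapping genes cannot be told apart without strand, and the sources used here do not state how strand was treated. In the RefSeq gene table, of assembly GRCz12tu, slc7a2 lies on chromosome 14 and overlaps the adjacent gene mtmr7a, which had 748 CCK1/2-KO and 873 WT UMIs, a log2 ratio of −0.36 (−0.50 to −0.22). The 10 nearest genes with a row in the files were taken on each side. On the side of mtmr7a they reached 249 kb from slc7a2, with 3 genes passed over. On the other side they reached 1977 kb, with 19 passed over, so the sides are windows of unlike size. On the side of mtmr7a, 0 of 7 neighbours with at least 100 UMIs was past 1.5-fold, with ratios from −0.36 to 0.12. On the other side 4 of 7 were past 1.5-fold lower in CCK1/2-KO, against 5.02% of all features. The next gene there, pdgfrl, had 79 CCK1/2-KO and 124 WT UMIs, a ratio of −0.79 (−1.21 to −0.37). Farther out came cyp4v2b, with 99 and 205 UMIs and −1.19 (−1.55 to −0.83), pdlim3b, with 868 and 1246 UMIs and −0.66 (−0.78 to −0.53), and hmmr, with 66 and 110 UMIs and −0.87 (−1.34 to −0.42). Between them mtus1a, asah1a and tstd1 had ratios of −0.01, 0.13 and −0.14. fam149a, on the same side and under the minimum of 100 UMIs, had the lowest ratio of the neighbours, with 9 CCK1/2-KO and 50 WT UMIs and −2.61 (−3.82 to −1.57). The ratio of slc7a2 was −6.90, and the part that position plays was not tested.

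The genes with the highest relative level in WT cells with a slc7a2 UMI fell less than slc7a2 or not at all. Of the 10 with the highest ratio of level in WT cells with a slc7a2 UMI over WT cells without one, epd led with 9768 against 626 CPM, but 99.3% of the epd UMIs of the slc7a2 cells came from epd-rich cells. The next were ggctb, the myelin gene mbpb, fxyd3, wu:fj16a03, pmchl, PLAT, cxcl18b, ptprb and cyp1b1. The share of slc7a2 cells with a UMI of the gene ran from 10.5% for cyp1b1 to 64.9% for pmchl. Their own ratios of CCK1/2-KO over WT lay between −0.87 for pmchl and 0.30 for fxyd3. Of the 10, pmchl and cyp1b1 (−0.62) were past 1.5-fold lower, against 5.02% of all features. WT cells with a slc7a2 UMI were also deeper, with a median of 10245 UMIs, against 2758 in WT cells without one.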

How the data were processed

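Hypothalamic cells of CCK1/2-KO and WT zebrafish were profiled with the 10x Genomics droplet method, 1 library per genotype, grouped by the genotype in the labels. For each library the authors deposited raw UMI counts per gene and barcode. The submitters' processing notes name Cell Ranger, Seurat and the build GRCz11. How reads matching more than 1 gene copy, or lying on overlapping genes, were counted is not given in the sources used here. The members and gene lists were chosen with earlier results of these data known.

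Kept were barcodes of 500 UMIs or more, 250 genes or more and no more than 20% of UMIs from mitochondrial genes, and those with the highest Scrublet scores were removed, 0.8% per 1000 barcodes (1077 CCK1/2-KO and 701 WT). A cell entered a class when at least 3 markers had a UMI and their UMIs reached a minimum of 10 to 160 per 10000, and the class furthest over its minimum won. Cells with at least 500 epd UMIs per 10000 were set apart. These minimums, the split of neuron-like cells, the emphasis on slc7a11 and the summary of calls over alternatives were chosen after values were seen. The stricter class rule asks for 4 markers and leaves out cells that pass for more than 1 class. Of 148 markers, 137 were found. Intervals are exact Poisson (levels), conditional binomial (ratios) and Clopper-Pearson (shares), at 95%. Shares were compared after thinning to 1000 UMIs, which left out 2889 CCK1/2-KO and 2202 WT cells. Named were slc7a2, the other cationic transporters, the heavy chains, members past 1.5-fold, list genes past 1.5-fold, the 10 genes detected with slc7a2 and some of its 10 neighbours per side. Ratios, intervals and thinning were tested on simulated data. Python 3.11.15, scanpy 1.11.5, scipy 1.17.1, numpy 2.4.6 and pandas 2.3.3 were used. No sequences are printed, since no sequence table was used here.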

Additional observations from a re-analysis of the deposited data

Results flagged for a closer look

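In 4 cases the ratio of CCK1/2-KO over WT ran past 1.5-fold in opposite directions in 2 classes of cells, unassigned cells included, and in none of them was the difference between the classes tested. The log2 ratio of slc38a3a was 1.31 in ciliated-like cells (79 CCK1/2-KO and 34 WT UMIs in 34 and 31 cells), against −0.89 in oligodendrocyte-like cells. Under the stricter class rule only 5 CCK1/2-KO and 8 WT cells stayed ciliated-like. The same 1.31 stands against −1.01 in macrophage-like cells, a value that turns with the processing. For slc38a2 the log2 ratio was 0.60 in lymphatic endothelium-like cells (161 CCK1/2-KO and 58 WT UMIs), against −0.66 in epd-rich cells (46 CCK1/2-KO and 58 WT UMIs). For slc43a2b the log2 ratio was 1.11 in macrophage-like cells (572 CCK1/2-KO and 203 WT UMIs), against −0.80 in unassigned cells (287 CCK1/2-KO and 407 WT UMIs).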

How the results depend on the processing

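No paired analysis was possible because each genotype has 1 library. Over all cells, 1 gene was higher and 5 were lower under the stricter cell filter (4.8% and 4.91% of all features) and with doublets kept (4.91% and 5%). The same counts held with another scaling (4.77% and 5%) and with the WT class composition (4.53% and 4.86%). Under the latter slc43a3b took the place of slc7a10a among the lower genes. Without the 3 highest cells 1 was higher (5.06%) and 4 were lower (4.73%). At a minimum of 20 UMIs 2 of 35 were higher (7.48%) and 5 lower (8.01%). At 300 UMIs 1 of 27 was higher (3.45%) and 2 were lower (3.11%). With 1 CPM added 1 of 35 was higher (1.99%) and 2 were lower (2.46%). At a fold of 2 there were 0 higher (1.19%) and 0 lower (1.79%) of 33. The log2 ratio of slc7a2 stayed between −7.64 and −6.90. The stricter class rule kept the leading class of 22 of 34 genes in WT, and thinning that of 22 in WT and 22 in CCK1/2-KO. Of 22 calls within 7 classes, 7 held under all 6 alternatives, and 12 were lost with thinned cells, 5 under the stricter class rule, 4 without the 3 highest cells and 2 with doublets kept. The higher ones among the 7 were SLC43A2 and slc3a2b in astroglia-like cells and slc43a2b in macrophage-like cells. The lower ones were slc38a3a in oligodendrocyte-like cells, slc43a3b in macrophage-like cells, and slc7a6os in astroglia-like and in oligodendrocyte-like cells. slc7a6os is no transporter gene. Reversed were slc38a3a in macrophage-like cells (−1.01, but 0.353 under the stricter class rule and 0.297 without the 3 highest cells) and slc7a6 in oligodendrocyte precursor-like cells (0.89, but −0.425 with thinned cells), and the cause was not tested. Thinning keeps 1000 UMIs of each cell and leaves out shallower cells, so genes with few UMIs are the least certain. With 1 library per genotype no value here measures the spread between fish.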
